A study of Petunia x hybrida with 32 samples.

Results

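The transcripts described here are those whose response to salt in petunia leaves differed between 24 h and 6 h of exposure. For each transcript the salt effect at a time was the mean log2(RPKM + 1) of salt-treated leaves minus that of control leaves of the same time. RPKM is a read count scaled by transcript length and by the mapped reads of the library. The salt effect at 6 h was subtracted from that at 24 h, and this interaction was tested with limma over every tested transcript. At an adjusted p below 0.05, 1505 of 4658 tested transcripts were called, which is 32.3% of those tested. They belong to 1257 assembled components, out of 4767 transcripts with values from 3450 components. The transcripts with values are a small part of those the study assembled, so shares of all tested transcripts hold for that part alone.

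The plants were Petunia x hybrida 'Mitchell Diploid', grown in solution culture in a growth chamber, with 1 genotype in every group. Salt-treated leaves came from plants whose nutrient solution held 150 mM NaCl, and control leaves came from plants with the same solution and no added NaCl. Leaves were taken after 24 h and after 6 h in both treatments, and control leaves also at 0 h. Each group had 3 replicates and each replicate pooled 3 plants, so that 12 replicates entered the interaction and 15 the fit. The methods describe groups of 3 plants within each treatment that were sampled at every time, so replicates of a treatment may share plants across the times. Whether equal replicate numbers mark the same plants is not stated, and the fit treats all replicates as independent. The 24 h leaves were taken at the same hour of the day as the 0 h leaves and the 6 h leaves at another hour, so the length of exposure and the hour of the day cannot be told apart in the interaction. Whole leaves were used, in which fewer cells of a type and less RNA per cell cannot be told apart either.

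Sodium chloride in the root medium first lowers the water potential around the root and later lets sodium and chloride build up in the shoot. Early responses are known to include closure of stomata, abscisic acid signalling and the making of small protective solutes, and later ones include shifts in growth, water channels, photosynthesis and protein turnover. Many leaf genes also follow the time of day, so a salt effect can change because the level moves in salt-treated leaves, in control leaves or in both.

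The salt effect was higher at 24 h than at 6 h for 798 transcripts (17.1% of those tested) and lower for 707 (15.2%). That split of 53% higher turned to 608 higher and 852 lower, or 41.6% higher, when all replicates were set to the same median, a setting that shifts the interaction by -0.15 on the log2 scale. Called interactions ranged in size up to 5.74, 1392 of them were at least 1 in size and 409 at least 2, and the median standard error over all tested transcripts was 0.41. Over all tested transcripts the median interaction was 0.06, beside a median salt effect of 0.01 at 24 h and -0.07 at 6 h. Low RPKM values fell on whole steps (97.6% within 0.1 of a step, over 690 transcripts), from which relative depth was read in units of the shallowest library. It was 1.8 to 2.59 in the salt-treated libraries at 24 h and 1.0 to 1.66 in the control libraries at 24 h, with 1.03 to 2.11 in the salt-treated and 1.3 to 2.52 in the control libraries at 6 h. This depth, read from the steps, thus differed with the group at 24 h. The raw reads per library that the paper lists overlapped between salt-treated and control leaves at 24 h. The part of depth in the results was not tested. No counts were used, so no counting interval is given, and the p-values measure the spread between these replicates. Of 4 tested transcripts of light harvesting and photosystem II, which mark leaf mesophyll, the chlorophyll a-b binding transcript was the most abundant, with at least 1176 RPKM in every replicate of the 4 groups of the interaction.

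By the salt effect at each time alone, the 1505 transcripts fell into 6 classes. A reversed effect was called at both times with opposite signs (168 transcripts), a grown effect was called at both times with 1 sign and was larger at 24 h (70), and a faded one was called at both times and was larger at 6 h (16). Late-only effects were called at 24 h and not at 6 h (739), early-only effects at 6 h and not at 24 h (414), and 98 transcripts had an interaction although neither effect was called alone. The late-only class held 397 transcripts higher in salt-treated leaves and 342 lower, where 24.2% and 22.3% of all tested transcripts were higher and lower with salt at 24 h. In the early-only class 208 were higher and 206 lower in salt-treated leaves, where 17.3% and 17.2% of all tested were higher and lower with salt at 6 h. The classes use the same contrasts as the choice of transcripts, so these counts are a description. They also depended on single replicates. The reversed class held 107 transcripts without replicate 2 of the salt-treated leaves at 6 h, and 279, 99 and 105 without replicate 1, 2 or 3 of the control leaves at 6 h. The early-only class held 259 without replicate 2 of the salt-treated leaves at 6 h and 222 without replicate 2 of the control leaves at 6 h. The grown class held 34 and 31 without replicate 1 or 3 of the salt-treated leaves at 6 h, and 45, 28 and 41 without replicate 1, 2 or 3 of the control leaves at 6 h. The faded class held 6 to 10 without 1 of the replicates at 24 h. A salt effect that was not called at a time is not shown to be absent there.

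**Figure D1:**
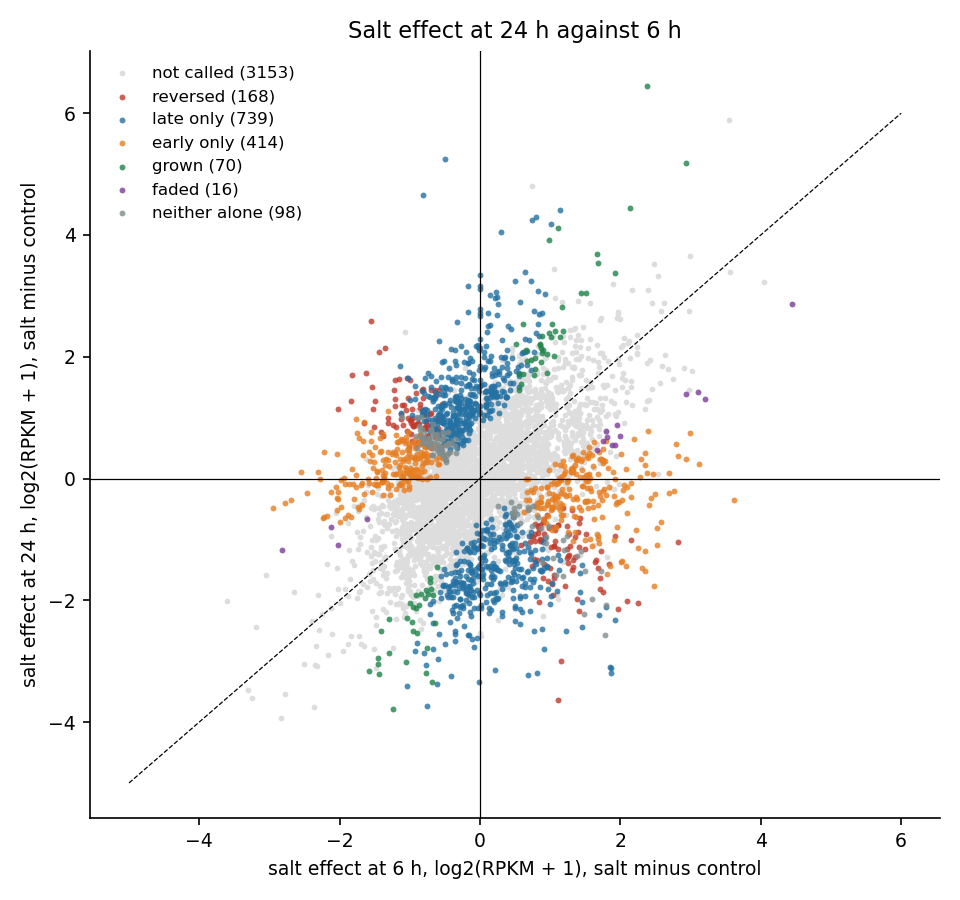
The salt effect at 24 h is plotted against that at 6 h, both in log2(RPKM + 1), with 1 point for each of the 4658 tested transcripts. Coloured points are the 6 classes of called transcripts, grey points are not called, and the dashed line marks equal effects. Reversed transcripts lie to the upper left and to the lower right of the origin and late-only transcripts lie along the vertical axis.

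The interaction does not say which leaves moved. Between 24 h and 6 h, 932 of the 1505 transcripts differed in salt-treated leaves and 974 in control leaves, against 60.3% and 61.6% of all tested transcripts. Salt-treated leaves alone differed for 499 transcripts (33.2%), control leaves alone for 541 (35.9%) and both for 433 (28.8%), while 32 (2.13%) differed in neither. Among the transcripts that were not called, the shares were 13.9% for salt-treated leaves alone, 14.4% for control leaves alone, 45.7% for both and 26% for neither. Among the early-only transcripts that were lower with salt, 27 of 206 differed between the times in salt-treated leaves alone and 127 in control leaves alone. Among the late-only transcripts higher with salt, 185 of 397 differed in salt-treated leaves alone and 121 in control leaves alone. Of the 39 grown transcripts higher with salt, 25 differed in salt-treated leaves alone. These comparisons share their samples with the interaction and are a description of it. A change between the times that was not called is not shown to be absent.

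**Figure D2:**
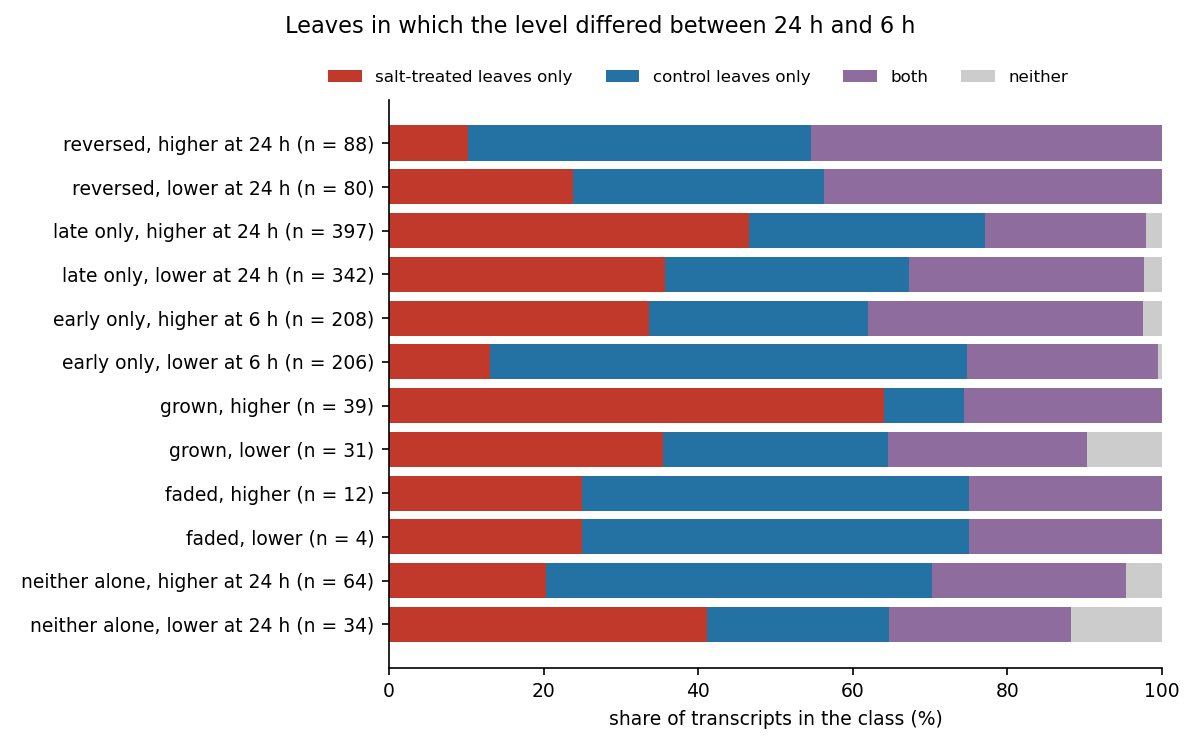
Each bar is a class of transcripts split by direction, and its colours give the share (%) whose level differed between 24 h and 6 h in salt-treated leaves only, in control leaves only, in both or in neither. Grown transcripts higher with salt are mostly red (25 of 39), and early-only transcripts lower with salt are mostly blue (127 of 206).

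In the reversed class, 80 transcripts were higher with salt at 6 h and lower with salt at 24 h, and 88 went the other way. For 149 of the 168, the replicates of salt-treated and control leaves did not overlap at either time, where 6.46% of all tested transcripts had replicates apart at both times in opposite directions. The class was chosen by opposite effects in these same replicates, so this count follows largely from the choice and is no separate support. The largest change belonged to a transcript of an expansin, a wall-loosening protein of growing cells (cell wall protein exp1 precursor, comp25698_c1_seq3). It had 5.55, 9.77 and 5.44 RPKM in salt-treated leaves at 24 h, against 103, 109 and 74.9 RPKM in control leaves. After 6 h it had 214, 169 and 153 RPKM in salt-treated leaves, against 128, 86.5 and 49.1 RPKM in control leaves. All 3 salt-treated replicates were below all control replicates at 24 h and above them at 6 h. Its salt effect was -3.63 at 24 h and 1.11 at 6 h, an interaction of -4.74 ± 0.47 (SE, adjusted p = 5.46e-05). Salt-treated leaves were lower at 24 h than at 6 h (-4.53, adjusted p = 3.56e-08), while control leaves did not differ detectably between the times (0.20, adjusted p = 0.61). Another transcript of the same component, described as an expansin precursor, was also called, with an interaction of -1.01.

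A heat stress transcription factor of class B (b-2a-like, comp11409_c0_seq1), a family known mostly as repressors, reversed in the same direction through the control leaves. It had 38.9, 40.2 and 39.2 RPKM in salt-treated leaves at 24 h, against 54.7, 78.6 and 55.9 RPKM in control leaves. At the earlier time the values were 25.1, 33.7 and 29.5 RPKM with salt and 13.5, 9.71 and 8.15 RPKM without. Control replicates at 24 h were 4 or more times those at 6 h in this transcript, while the salt-treated replicates of both times lay closer together. The interaction was -2.07 ± 0.33 (SE, adjusted p = 0.000574), and levels at 24 h exceeded those at 6 h by 0.42 in salt-treated leaves (adjusted p = 0.131) and by 2.49 in control leaves (adjusted p = 3.44e-07).

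Allantoate chloroplastic-like (comp12971_c0_seq2) had 52.8, 56.1 and 81.7 RPKM with salt and 113, 110 and 90.2 RPKM without at 24 h. The 6 h leaves had 46.8, 52.9 and 40.6 RPKM with salt and 24.4, 14.4 and 13.5 RPKM without, and the interaction was -2.14 ± 0.34 (SE, adjusted p = 0.000558). A trypsin proteinase inhibitor precursor (comp25018_c0_seq1), of a family that blocks digestive proteases of herbivores, was among the abundant members. Its 24 h levels were 539, 627 and 431 RPKM with salt and 1229, 1361 and 1323 RPKM without. Its 6 h levels were 552, 937 and 705 RPKM with salt and 372, 298 and 247 RPKM without. Replicates with and without salt were apart at both times for each of these transcripts. The other described members named here were a rhodanese-like transcript (comp13531_c0_seq2, interaction -2.27), a DNA-binding protein (comp24416_c0_seq3, -2.10), a CCCH zinc finger protein (comp12542_c0_seq1, -1.85), an actin (comp11968_c0_seq1, -1.75), a C2H2 zinc finger protein (comp21649_c0_seq2, -1.66) and a ubiquitin-conjugating enzyme (comp22328_c0_seq3, -1.58).

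Among the 88 transcripts that were higher with salt at 24 h and lower with salt at 6 h, the highest interaction with a description was that of a chromatin protein. Protein set-like (comp21515_c0_seq2), named after a histone chaperone, had 7.46, 5.99 and 12.9 RPKM in salt-treated leaves at 24 h, against 2.31 RPKM or less in every control replicate. Salt-treated leaves at 6 h had 3.73, 3.56 and 3.12 RPKM, against 9.5, 18.9 and 17.7 RPKM in control leaves. The order of the treatments was opposite at the 2 times, with no overlap at either. The interaction was 3.52 ± 0.45 (SE, adjusted p = 0.000149), with a salt effect of 1.70 at 24 h and -1.82 at 6 h.

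Heat shock protein 83-like (comp26507_c0_seq2), a chaperone of the HSP90 family, had 57.3, 43.9 and 62.4 RPKM with salt and 17.4, 11 and 19.2 RPKM without at 24 h. In 6 h leaves it had 23.1, 17.6 and 18.3 RPKM with salt and 44, 77.3 and 70 RPKM without. The level with salt at 24 h was near that without salt at 6 h, and the level with salt at 6 h was near that without salt at 24 h. Its interaction was 3.36 ± 0.38 (SE, adjusted p = 0.000114). A 60S ribosomal protein of the large cytosolic subunit (comp22763_c0_seq3) showed the same crossing, with 28.9, 35.3 and 38.1 RPKM with salt at 24 h and 16.1, 14.5 and 14.1 RPKM without. Its 6 h values were 16.8, 24.6 and 16.4 RPKM with salt and 47.5, 82.8 and 46.1 RPKM without, and its interaction was 2.67 ± 0.38 (SE, adjusted p = 0.000306).

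Further members in that direction were an ABC transporter of the A family (comp17232_c0_seq2, interaction 2.35), a mitochondrial single-stranded DNA-binding protein (comp22459_c0_seq1, 2.32), a nucleolar cell growth regulator (comp20133_c0_seq2, 2.29) and DNA topoisomerase 1 (comp16003_c0_seq2, 2.09). The cytokinin-releasing enzyme LOG3 (comp25039_c1_seq3, 1.81), which frees the active cytokinin base, differed in that a change between the times was called in salt-treated leaves alone. Its control replicates at 24 h also lay above those at 6 h, by less. It had 16.1, 17.9 and 13.9 RPKM with salt and 9.72, 8.14 and 7.29 RPKM without at 24 h, and 1.48, 3.5 and 2.44 RPKM with salt and 6.72, 4.22 and 5.83 RPKM without at 6 h. Salt-treated leaves of this transcript differed between the times by 2.33 (adjusted p = 2.05e-06) and control leaves by 0.52 (adjusted p = 0.0883).

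**Figure D3:**
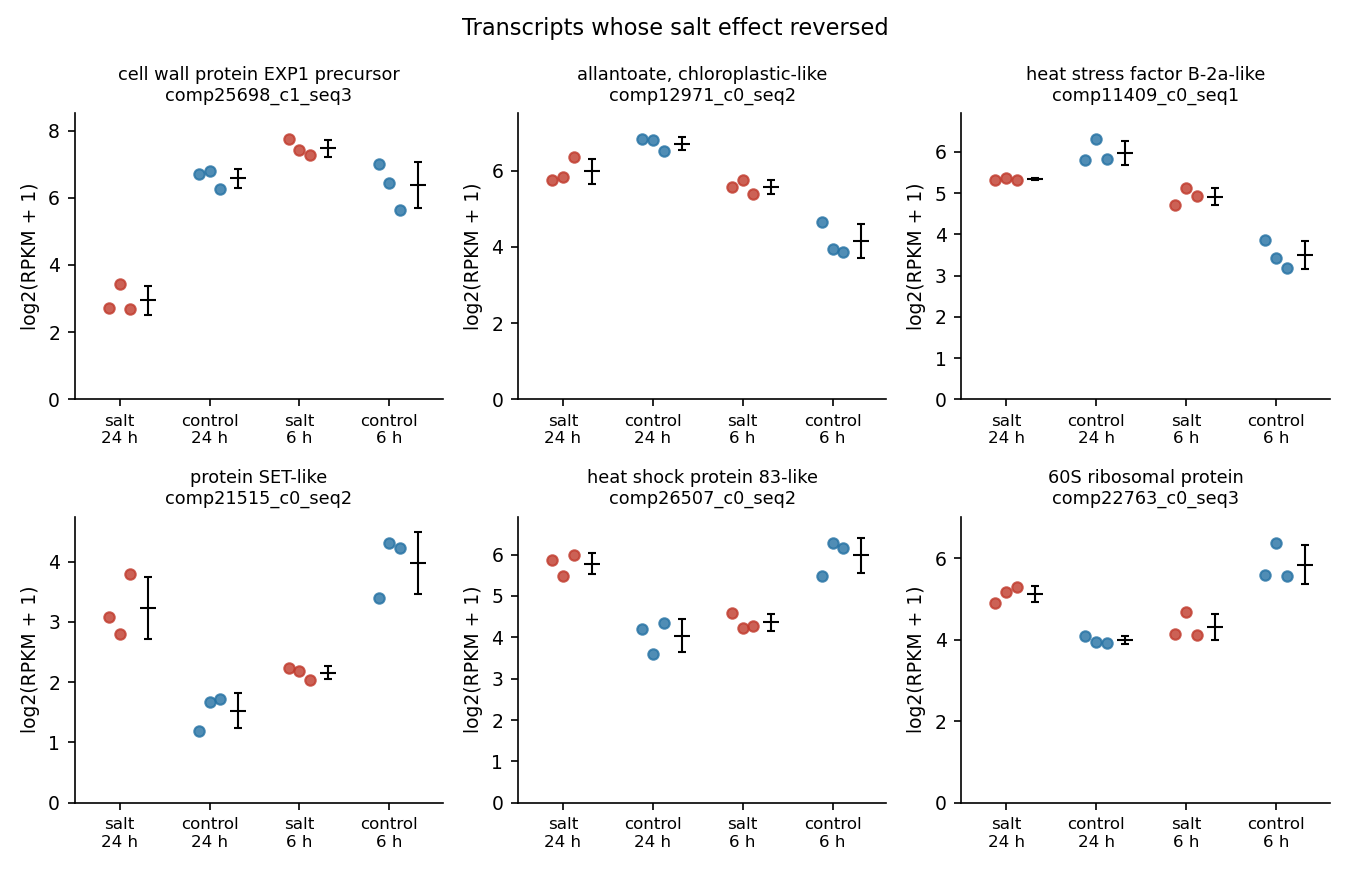
Points are the 3 replicates of each group in log2(RPKM + 1), and the bar beside them is their mean ± SD. Salt-treated leaves (red) lie below control leaves (blue) at 24 h and above them at 6 h in the upper row, where exp1 has 5.44 to 9.77 RPKM with salt at 24 h, and the order is turned in the lower row.

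The early-only transcripts that were lower with salt included the machinery that copies DNA. Of 19 tested transcripts on the list of DNA replication and repair, 16 had a higher and 1 a lower salt effect at 24 h than at 6 h, in either scaling. Over all tested transcripts 17.1% were higher and 15.2% lower. Of the 16, 13 were lower with salt at 6 h and not called at 24 h. The list's median interaction was 1.59, beside 0.06 over all tested transcripts, and its median salt effect was -0.09 at 24 h and -1.69 at 6 h. The list summed to 16.15 to 29.95 RPKM in control leaves at 24 h and to 100 to 141.3 RPKM at 6 h. Such low control levels at 24 h leave little room for a fall with salt, so a lowering at 24 h is not shown to be absent. The highest interaction of a described early-only transcript, one outside that list, was that of cell division control protein 6 homolog (comp20006_c0_seq1), which loads the replicative helicase at origins. It had 0.425, 0.48 and 0.265 RPKM with salt at 24 h and 0.17, 0.345 and 0.375 RPKM without. At 6 h it had 0.66, 1.22 and 0.74 RPKM with salt and 9.84, 11.9 and 8.29 RPKM without. Only the control leaves of 6 h held more than 2.31 RPKM, the highest value at 0 h. The interaction of this transcript was 2.65 ± 0.32 (SE, adjusted p = 0.000149), with a salt effect of 0.10 at 24 h (adjusted p = 0.741) and of -2.55 at 6 h (adjusted p = 1.65e-05).

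Replication protein A, the complex that coats single-stranded DNA at forks, was called through its 70 kDa and its 32 kDa subunit. The 70 kDa transcript comp25213_c0_seq3 had 0.385, 0.27 and 0.2 RPKM in salt-treated leaves at 6 h, against 3.73, 8.02 and 5.04 RPKM in control leaves at 6 h, with at most 0.73 RPKM in any replicate at 24 h and 2.67, 2.9 and 2.29 RPKM in control leaves at 0 h (interaction 2.42 ± 0.33, SE, adjusted p = 0.000228). The 32 kDa transcript comp18236_c1_seq2 had 0.5, 0.49 and 0.525 RPKM in salt-treated leaves at 6 h, against 5.53, 5.98 and 6.52 RPKM in control leaves at 6 h (interaction 2.65 ± 0.47, SE, adjusted p = 0.00121). The helicase subunit MCM2 (comp9318_c0_seq1), chosen after its values were seen, had 0.895, 0.23 and 0.575 RPKM with salt and 1.15, 0.83 and 0.975 RPKM without at 24 h. Its levels at 6 h were 0.835, 1.26 and 1.1 RPKM with salt and 8.99, 18 and 11.4 RPKM without. In each of these transcripts 1 group, the control leaves of 6 h, stood above the other groups of the interaction. The same was seen, also after the values were known, for an origin recognition subunit (comp17016_c0_seq1, interaction 2.27) and for the licensing factor CDT1 (comp21118_c0_seq2, 1.72). The exception on the list was DNA polymerase delta subunit 4 (comp10944_c0_seq1, -1.31), which was lower with salt at 24 h alone.

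Beside these transcripts, the 9 tested markers of dividing cells had summed levels of 12.5 to 15.3 RPKM with salt and 14.2 to 16.8 RPKM without at 24 h, and of 21 to 25.7 RPKM with salt and 39.7 to 60.2 RPKM without at 6 h. Of these markers 2 had a higher and 1 a lower salt effect at 24 h, a share of 33.3% beside 32.3% of all tested (1 and 1 with equal medians). The cell division control protein 6 transcript is itself 1 of the 9, so the sums are not independent of it, and their part in the result on DNA replication was not tested. A chloroplast chaperonin that binds the large RuBisCO subunit (comp11961_c0_seq1) was also lower with salt at 6 h. It had 135, 120 and 164 RPKM with salt and 119, 49.6 and 94.2 RPKM without at 24 h, and 58.5, 61.6 and 56.7 RPKM with salt and 179, 245 and 185 RPKM without at 6 h. Its interaction was 2.50 ± 0.43 (SE, adjusted p = 0.000999).

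Among the early-only transcripts higher with salt, the chloroplast chaperone DnaJ (comp12230_c0_seq1), a partner of HSP70, changed most of those with a description. It had 376, 400 and 538 RPKM with salt and 258, 606 and 316 RPKM without at 24 h. Its 6 h leaves had 2995, 3656 and 2637 RPKM with salt and 448, 311 and 310 RPKM without. Treatments overlapped at 24 h and were far apart at 6 h, and the interaction was -2.89 ± 0.51 (SE, adjusted p = 0.00117). An F-box protein (comp9475_c0_seq1, interaction -2.76) and WRKY transcription factor 53 (comp15947_c0_seq2, -2.67), a stress and senescence regulator in Arabidopsis, followed. WRKY53 had 14.7, 9.81 and 5.65 RPKM with salt and 2.92, 1.18 and 3.06 RPKM without at 6 h, and its call was lost in 5 of the 12 fits that each left out 1 replicate (interactions of -3.13 to -2.07).

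On the list of osmolyte metabolism, 4 of 11 transcripts had a lower salt effect at 24 h and none a higher one, a share of 36.4% beside 32.3% of all tested (15.2% lower), and all 4 were higher with salt at 6 h alone. They were 3 inositol phosphate synthases, which make the first step of inositol, and a trehalose-phosphate phosphatase. Myo-inositol-1-phosphate synthase (comp12425_c0_seq1) had 7040, 8755 and 6834 RPKM with salt and 6876, 6790 and 7661 RPKM without at 24 h. At 6 h the values were 1109, 1458 and 1481 RPKM with salt and 253, 189 and 295 RPKM without. The treatments overlapped at 24 h and were apart at 6 h. Its salt effect was 0.08 at 24 h (adjusted p = 0.842) and 2.46 at 6 h (adjusted p = 5.03e-05), an interaction of -2.39 ± 0.40 (SE, adjusted p = 0.000723). The trehalose-phosphate phosphatase (comp17913_c0_seq1) had 15, 16.6 and 13.1 RPKM with salt and 21.5, 16.9 and 16.8 RPKM without at 24 h, and 5.1, 4 and 3.81 RPKM with salt and 1.86, 1.5 and 1.22 RPKM without at 6 h (interaction -1.35 ± 0.32, SE, adjusted p = 0.00614).

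The proline synthesis enzyme delta-1-pyrroline-5-carboxylate synthase (comp11948_c0_seq1), chosen after its values were seen, was higher with salt at both times and was not called in the interaction (-0.47, adjusted p = 0.247). Of 26 transcripts on the abscisic acid list, 6 had a lower salt effect at 24 h and none a higher one, or 9 and none with equal medians, and the 23.1% called was below the 32.3% of all tested. All 6 were isoforms of 1 component, a protein phosphatase 2C (63-like), of a family that includes brakes on abscisic acid signalling, and 3 of them were early only, 1 was late only and 2 had neither effect called alone. The isoform with the smallest adjusted p (comp25573_c0_seq18) was early only and higher with salt at 6 h, with an interaction of -1.59 ± 0.42 (SE, adjusted p = 0.0125). At 24 h, where its salt effect was not called, it had 0.465, 0.7 and 1.14 RPKM with salt and 1.89, 2.94 and 0.695 RPKM without. Whether the 63-like phosphatase acts in abscisic acid signalling is not shown here. SRK2E-like (comp14103_c0_seq1) is named after an Arabidopsis kinase of that signalling, which opens the anion channel of guard cells. It had 20.2, 22.7 and 21.1 RPKM with salt and 26.6, 32 and 23.6 RPKM without at 24 h. Its 6 h values were 22.3, 25.4 and 24.9 RPKM with salt and 8.15, 7.38 and 10.8 RPKM without. Salt-treated leaves of this kinase held one level at both times and control leaves were low at 6 h (interaction -1.72 ± 0.28, SE, adjusted p = 0.000625). A glutaredoxin (comp16232_c0_seq2, -1.50), a ubiquitin ligase of the CIP8 type (comp12545_c0_seq1, -1.61) and cyclic nucleotide-gated ion channel 2 (comp17145_c0_seq1, -0.92, lost in 3 of 12 fits without 1 replicate) were early only in the same direction.

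Late-only transcripts higher with salt were led, among those with a description, by a heat shock cognate 70 kDa protein (comp16641_c0_seq2), a chaperone. It had 98.7, 85.5 and 107 RPKM with salt and 5.56, 3.06 and 4.11 RPKM without at 24 h. At 6 h it stayed at or under 2.79 RPKM in all 6 replicates. Its interaction was 3.50 ± 0.85 (SE, adjusted p = 0.00724). Heat shock protein 70 (comp20827_c0_seq1) had 7.84, 8.43 and 7.91 RPKM with salt and 0.555, 0.4 and 0.82 RPKM without at 24 h, and was listed at 0 in 5 of 6 replicates at 6 h. That transcript had an interaction of 2.37 ± 0.27 (SE, adjusted p = 0.000114), and control leaves at 0 h had 1.44, 0.835 and 1.4 RPKM.

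A vacuolar amino acid transporter (comp7589_c0_seq2) had 4.5, 13.5 and 7.9 RPKM with salt at 24 h and was listed at 0 in all control replicates, with no 6 h replicate above 0.42 RPKM. The transcript named major pollen allergen ory s 1 (comp15527_c0_seq1), a name used for beta-expansins, had 54.2, 64.4 and 49.6 RPKM with salt and 0.78, 1.13 and 4.03 RPKM without at 24 h. Phosphoenolpyruvate carboxylase kinase (comp14467_c0_seq2), which switches on carbon fixation into malate, had 37.4, 42.8 and 31.2 RPKM with salt and 1.29, 5.03 and 3.56 RPKM without at 24 h. None of these overlapped between treatments at 24 h, and their interactions were 3.32 ± 0.38, 3.26 ± 0.83 and 2.52 ± 0.68 (SE). Peroxidase 73-like (comp25904_c0_seq2, interaction 2.32) differed in that control leaves moved. It had 11.1, 12.2 and 15.4 RPKM with salt and 0.525, 1.38 and 0.765 RPKM without at 24 h, and 11.6, 15.9 and 13.8 RPKM with salt and 7.83, 7.71 and 11.5 RPKM without at 6 h. Other late-only members higher with salt were a UPF0098 protein (comp8627_c0_seq2, 2.76), a RabC2a-like GTPase (comp18083_c0_seq1, 1.86), the ethylene-responsive factor ERF112 (comp21299_c0_seq1, 1.50), bHLH157 (comp10033_c0_seq1, 1.26) and a lectin receptor kinase (comp18591_c0_seq2, 1.34).

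Water channels stood on the other side of the late-only class. Of 6 aquaporin transcripts 4 had a lower salt effect at 24 h and none a higher one (5 and none with equal medians). That is 66.7% called, beside 32.3% of all tested (15.2% lower). The list's median salt effect was -1.38 at 24 h and 0.05 at 6 h. The plasma membrane aquaporin PIP2-4-like (comp16298_c1_seq1) had 55.3, 58.6 and 37 RPKM with salt and 279, 210 and 201 RPKM without at 24 h. In the 6 h leaves it had 42, 49.2 and 77.3 RPKM with salt and 39, 34.6 and 33.4 RPKM without. Salt-treated leaves did not differ detectably between the times (-0.13, adjusted p = 0.638) and control leaves were higher at 24 h (2.64, adjusted p = 2.57e-07), with an interaction of -2.78 ± 0.34 (SE, adjusted p = 0.000149). The tonoplast aquaporin TIP4-1-like (comp10877_c0_seq1) had 8.27, 11.9 and 12.4 RPKM with salt and 40.2, 42.5 and 46.7 RPKM without at 24 h, and 19.7, 28.7 and 23.8 RPKM with salt and 29, 18.8 and 24.7 RPKM without at 6 h. Its treatments overlapped at 6 h and not at 24 h (interaction -1.91 ± 0.32, SE, adjusted p = 0.000771). An X intrinsic protein (comp21541_c0_seq2, -2.19) and NIP2-1-like (comp16092_c0_seq4, -0.95) were the other called members, taken from the list with no further rule. NIP2-1-like had at most 1.76 RPKM in any replicate.

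Of the 4 mesophyll markers 2 (50%) had a lower salt effect at 24 h than at 6 h, beside 15.2% lower over all tested transcripts. The chlorophyll a-b binding transcript (comp25306_c0_seq3), an antenna protein, had 1176, 1205 and 1263 RPKM with salt and 4822, 3961 and 3470 RPKM without at 24 h, and 2752, 4402 and 3390 RPKM with salt and 4009, 2459 and 2246 RPKM without at 6 h. The interaction was -2.03 ± 0.35 (SE, adjusted p = 0.000999). A photosystem II reaction center protein (comp12720_c0_seq2) had 9.62, 13.4 and 10.6 RPKM with salt and 68.9, 41 and 48.9 RPKM without at 24 h (interaction -1.88 ± 0.35, SE, adjusted p = 0.00155). Summed over the 4 markers, levels were 1190 to 1282 RPKM with salt and 3526 to 4902 RPKM without at 24 h, and 2795 to 4458 RPKM with salt and 2290 to 4083 RPKM without at 6 h. The chlorophyll a-b binding transcript makes up nearly all of this sum, and the photosystem II 10 kDa and D1 transcripts were not called. The part of this fall in the other late results was not tested. Other late-only transcripts lower with salt were phosphoinositide phospholipase C (comp25389_c0_seq2, -1.73), homeobox factor HAT4 (comp26497_c0_seq1, -1.48), a pectinesterase (comp23056_c0_seq1, -1.40), an auxin-induced 5NG4-like protein (comp7897_c0_seq1, -1.15, lost in 2 of 12 fits without 1 replicate) and a cyclin-dependent kinase (comp13852_c0_seq2, -1.12, lost in 8 of 12 fits without 1 replicate, -1.27 to -0.96).

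Several of the strongest late-only changes in that direction rested on control leaves of 24 h that did not lie together. CCR4-associated factor 1 homolog 9 (comp17001_c0_seq1), a deadenylase that shortens poly(A) tails, had 8.12, 4.79 and 12 RPKM with salt and 142, 136 and 4.63 RPKM without at 24 h. Replicate 3 of the control leaves at 24 h lay below the lowest salt-treated replicate, and the other control replicates more than 100 RPKM above the highest. The same control replicate stood apart in a second transcript of that name (comp8183_c0_seq1), a UDP-glucuronate epimerase (comp26376_c0_seq1), the xyloglucan enzyme XTH9 (comp22456_c0_seq1) and the ethylene-responsive factor ERF012 (comp14581_c0_seq1). Their interactions were -3.90 ± 1.24, -2.94 ± 0.85, -3.05 ± 0.77, -2.87 ± 0.78 and -2.48 ± 0.70 (SE) in the order named, and the call of the first was lost in 6 of 12 fits without 1 replicate (-5.45 to -3.11) and that of the second in 1. Among all 342 late-only transcripts lower with salt, this replicate alone lay within the range of the salt-treated replicates for 22, against 1 for replicate 1 and 0 for replicate 2. Without it 1500 transcripts were called, 1324 of them among the 1505.

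The grown class held 39 transcripts higher and 31 lower with salt at both times. A GDSL esterase lipase (comp11731_c0_seq1), of an enzyme family that also builds the cuticle, had 4.28, 3.82 and 2.37 RPKM with salt and 69.2, 50.3 and 61.9 RPKM without at 24 h. At 6 h the levels were 14.4, 13.4 and 9.69 RPKM with salt and 29.6, 39.7 and 24.2 RPKM without. Treatments were apart at both times and further apart at 24 h, with a salt effect of -3.79 at 24 h and -1.24 at 6 h and an interaction of -2.55 ± 0.37 (SE, adjusted p = 0.000307). An alternative NADH dehydrogenase of mitochondria (comp13139_c0_seq1), which passes electrons without pumping protons, had 18.3, 20.6 and 16.9 RPKM with salt and 110, 86.2 and 106 RPKM without at 24 h. The 6 h values were 50, 67.7 and 47 RPKM with salt and 88, 80.6 and 86.7 RPKM without, and control leaves did not differ detectably between the times (interaction -1.73 ± 0.27, SE, adjusted p = 0.000523). A cytochrome P450 (comp24444_c0_seq3, -1.39) and a BTB/POZ and TAZ domain protein (comp23390_c0_seq10, -1.17) also grew lower.

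Several transcripts that grew higher encode enzymes of amino acid transfer or breakdown. Alanine aminotransferase (comp26518_c0_seq1) had 74.9, 71.4 and 80.3 RPKM with salt and 13.4, 10.5 and 17.3 RPKM without at 24 h, and 27.4, 33.3 and 40.5 RPKM with salt and 16.5, 17 and 15.4 RPKM without at 6 h. Its interaction was 1.41 ± 0.29 (SE, adjusted p = 0.003), and control leaves did not differ detectably between the times (adjusted p = 0.298). A branched-chain amino acid aminotransferase described as chloroplastic-like (comp26136_c1_seq9) had 3.87, 3.62 and 5.16 RPKM with salt and 0.235, 0.16 and 0 RPKM without at 24 h (interaction 1.34 ± 0.36, SE, adjusted p = 0.0127). The 2-oxoisovalerate dehydrogenase (comp11045_c0_seq1), described as mitochondrial and an enzyme in the breakdown of branched-chain amino acids, had 100, 105 and 102 RPKM with salt and 9.64, 11.9 and 13.1 RPKM without at 24 h. Its interaction of 1.62 (adjusted p = 0.0373) lost its call in 8 of 12 fits without 1 replicate (1.24 to 1.93). Of the 12 tested transcripts of amino acid metabolism, 3 had a higher and 1 a lower salt effect at 24 h, a share of 33.3% beside 32.3% of all tested, and 2 of the 3 were isoforms of the branched-chain aminotransferase. A RING and CHY zinc finger protein (comp15824_c0_seq2, interaction 2.02) had 103, 128 and 107 RPKM with salt and 5.47, 7.52 and 11.3 RPKM without at 24 h, and 206, 116 and 166 RPKM with salt and 31, 42.8 and 88.1 RPKM without at 6 h. In that transcript salt-treated leaves did not differ detectably between the times (-0.49, adjusted p = 0.301) and control leaves were lower at 24 h than at 6 h (-2.51). A cinnamoyl reductase-like protein (comp18237_c0_seq1, 1.70) was listed at 0 in control leaves at 6 h.

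Only 16 transcripts faded while still being called at 24 h, 12 of them higher with salt. Among them, 4-hydroxyphenylpyruvate dioxygenase (comp23645_c0_seq1) and homogentisate dioxygenase (comp12426_c0_seq1) catalyse successive steps of tyrosine breakdown, and the product of the first is also the head group of vitamin E. The first had 254, 268 and 253 RPKM with salt and 150, 209 and 174 RPKM without at 24 h, and 97.9, 87 and 87.9 RPKM with salt and 24.9, 20.5 and 24.3 RPKM without at 6 h. The second had 180, 198 and 179 RPKM with salt and 114, 119 and 113 RPKM without at 24 h, and 171, 162 and 152 RPKM with salt and 49, 37.4 and 50.4 RPKM without at 6 h. Treatments were apart at both times in both transcripts, and closer together at 24 h on the log2 scale. Their interactions were -1.38 ± 0.28 (SE, adjusted p = 0.0024) and -1.14 ± 0.29 (SE, adjusted p = 0.00963), and control leaves were higher at 24 h than at 6 h by 2.87 and 1.33. A cytochrome P450 (comp15892_c0_seq2, interaction 0.93, adjusted p = 0.0479) that faded while lower lost its call in 10 of 12 fits without 1 replicate (0.73 to 1.15).

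**Figure D4:**
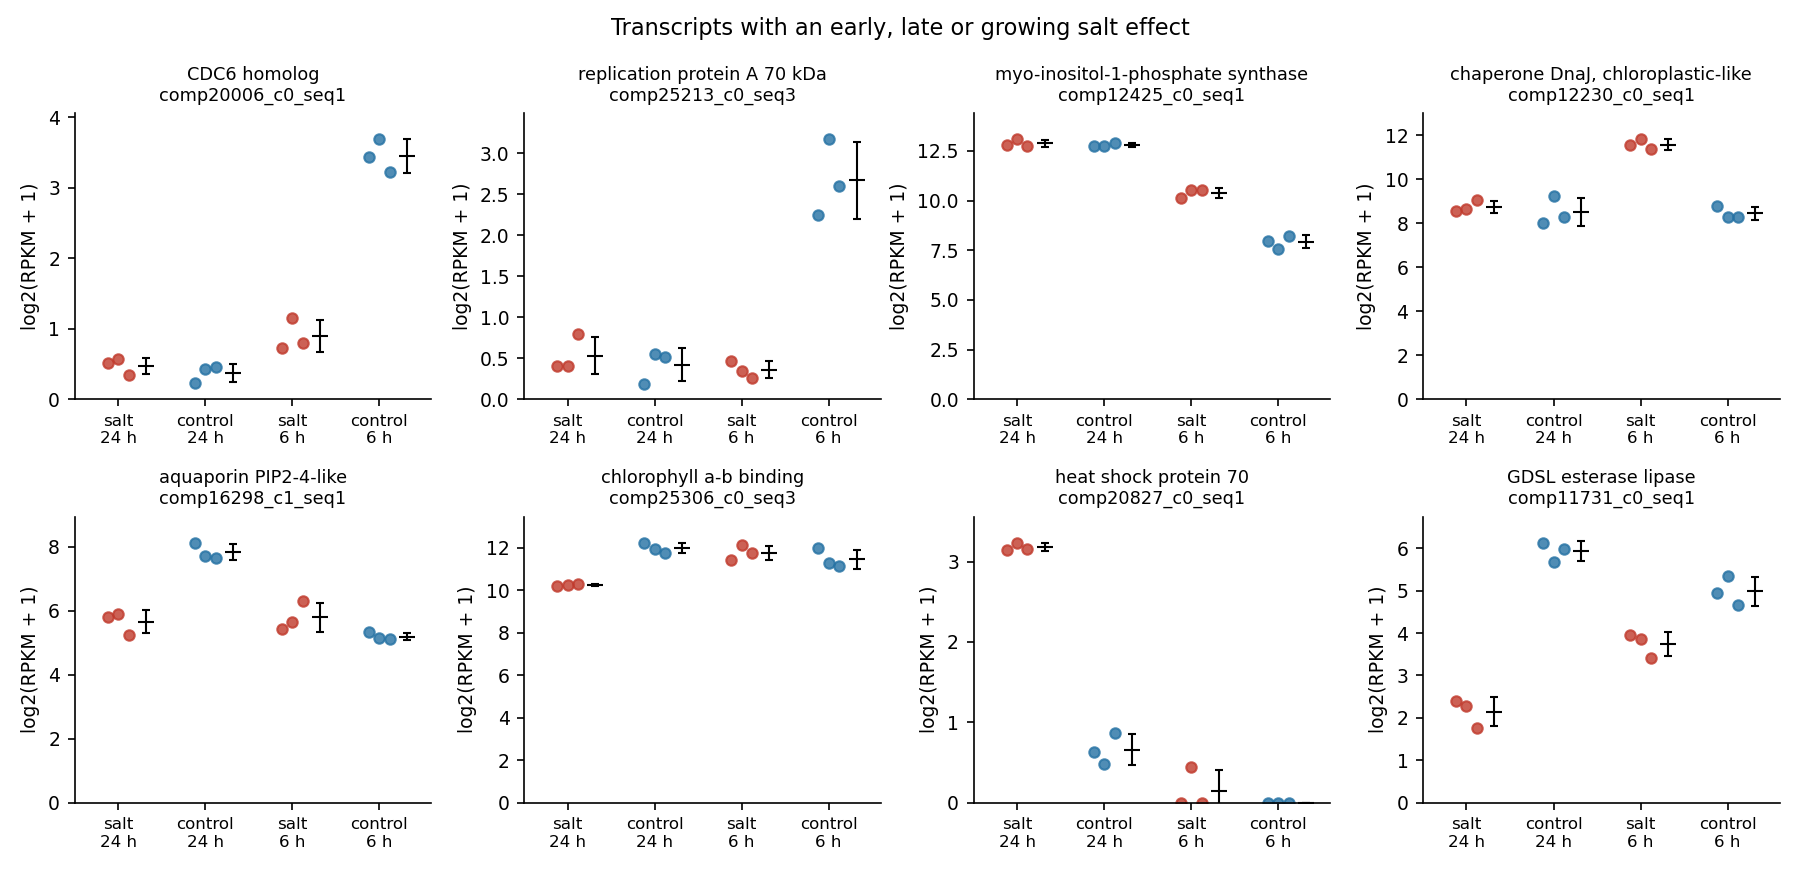
Points are the 3 replicates of each group in log2(RPKM + 1), with mean ± SD beside them. Treatments (salt red, control blue) are apart at 6 h alone for CDC6, replication protein A, myo-inositol-1-phosphate synthase and DnaJ, and at 24 h alone for the chlorophyll a-b binding protein and, with 7.84 to 8.43 RPKM with salt, HSP70. They are apart at both times for the GDSL lipase and for the aquaporin, whose salt effect was called at 24 h alone.

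A further 98 transcripts had no called salt effect at either time. The zinc finger protein ZAT11-like (comp21609_c0_seq1), a stress regulator in Arabidopsis, had 1.95, 0.91 and 1.28 RPKM with salt and 27.6, 68 and 0.355 RPKM without at 24 h. Its 6 h leaves had 20.4, 13 and 40.9 RPKM with salt and 16.7, 1.44 and 6.05 RPKM without. Control replicate 3 at 24 h again stood below the salt-treated leaves, and the interaction of -4.35 ± 1.49 (SE, adjusted p = 0.0368) lost its call in 9 of 12 fits without 1 replicate (-6.03 to -3.19). The pseudo-response regulator APRR5-like (comp15361_c0_seq2), a clock component, had 1.57, 1.33 and 0.855 RPKM with salt and 0, 0.475 and 0.67 RPKM without at 24 h, and 40.5, 30.6 and 40.5 RPKM with salt and 35.2, 59.5 and 86.8 RPKM without at 6 h. Both treatments were far lower at 24 h, by -4.09 with salt and -5.42 without, beside an interaction of 1.33 (adjusted p = 0.0311, lost in 6 of 12 fits without 1 replicate, 1.03 to 1.67).

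Across the gene lists, read against 32.3% called over all transcripts, the shares were highest for DNA replication and repair (89.5%), aquaporins (66.7%), ribosome and translation (57.9%), starch (55.6%) and RNA processing (50.9%). RNA processing held 57 tested transcripts, 25 with a higher and 4 with a lower salt effect at 24 h (17 and 4 with equal medians), and a median salt effect of 0.44 at 24 h and -0.44 at 6 h. On the ribosome list 9 of 19 were higher and 2 lower in either scaling, and the higher ones included the ribosome biogenesis proteins BOP1, BMS1 and WDR12 and the 60S protein L18a (comp17021_c0_seq1). The 2 lower ones were a chloroplastic 50S protein (comp13240_c0_seq1, -1.96) and S10 (comp25817_c0_seq4, -1.69). The 50S transcript had 343, 371 and 240 RPKM with salt and 2150, 1297 and 1298 RPKM without at 24 h. With it, the list summed to 407.8 to 523.9 RPKM with salt and 1402 to 2283 RPKM without at 24 h. L18a had 55.6, 45.1 and 47.9 RPKM with salt and 43.6, 23.7 and 31 RPKM without at 24 h, and 24.5, 25.4 and 22.2 RPKM with salt and 64.8, 98.6 and 76.1 RPKM without at 6 h (interaction 2.29 ± 0.41, SE, adjusted p = 0.00113). An RNA-binding protein precursor (comp25049_c0_seq2, 1.52) was the other member of RNA processing named by rule. Starch had 5 of 9 higher and none lower (3 and none with equal medians), of which 4 were isoforms of 1 component of glucan water dikinase, the enzyme that phosphorylates starch before its breakdown. Its isoform comp15987_c0_seq1 had 3.1, 2.86 and 3.67 RPKM with salt and 1.58, 1.14 and 1.46 RPKM without at 24 h, and 85.4, 80.1 and 74 RPKM with salt and 73.8, 132 and 134 RPKM without at 6 h. Alpha-amylase 2-like (comp16354_c0_seq2, interaction 1.04) lost its call in 7 of 12 fits without 1 replicate (0.85 to 1.19).

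The shares called stand beside 32.3% of all tested. Cell wall transcripts were called in both directions, 5 higher and 8 lower of 28 (46.4% called). So were WRKY, NAC and zinc finger factors, 4 and 9 of 28 (46.4% called, 4 and 10 with equal medians). Heat shock proteins and chaperones had 5 higher and 2 lower of 15 (46.7% called), and the 2 lower ones were the DnaJ and the class B heat stress factor above. Protein kinases had 10 higher and 7 lower of 92 (18.5% called, below the share of all tested), which turned to 7 and 10 with equal medians. Ubiquitin and proteasome transcripts had 9 and 9 of 54 (33.3% called), which turned to 6 and 13. Lipid metabolism had 7 and 7 of 40 (35% called, 5 and 9 with equal medians), and ion transport had 4 and 2 of 29 (20.7% called, 1 and 2). In the ion transport list the sodium proton exchanger (comp16645_c0_seq1) and the sodium transporter HKT1-like (comp24565_c0_seq2), named after their values were seen, were not called, with interactions of -0.57 (adjusted p = 0.151) and 0.26 (adjusted p = 0.742). None of 10 sugar transporters or of 3 transcripts of chlorophyll and plastid organisation was called.

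The remaining lists are given by their counts and shares called, beside 32.3% of all tested. Reactive oxygen and glutathione transcripts had 4 higher and 2 lower of 17 (35.3% called, 2 and 2 with equal medians). MYB, bHLH, bZIP and HD-ZIP factors had 3 and 1 of 15 (26.7% called, 2 and 2 with equal medians). Vesicle and cytoskeleton transcripts had 3 and 2 of 19 (26.3% called), and clock and light transcripts 2 and 1 of 18 (16.7% called, 2 and 2 with equal medians). Auxin, cytokinin, gibberellin and brassinosteroid transcripts had 2 and 2 of 20 (20% called, 1 and 2 with equal medians). Ethylene transcripts had 1 and 1 of 8 (25% called), disease resistance transcripts 1 and 0 of 7 (14.3% called, 1 and 1 with equal medians), and no transcript of the jasmonate list was tested. Of the markers of other cell types, xylem and lignin had 1 higher and 1 lower of 7 (28.6% called) and epidermis and cuticle 0 and 1 of 2 (50% called). The 1 phloem and 4 petal pigment markers were not called. The epidermis markers summed to 2.88 to 5.76 RPKM with salt and 53.6 to 72.2 RPKM without at 24 h, and to 10 to 14.8 RPKM with salt and 24.9 to 44 RPKM without at 6 h. One of these 2 markers is the GDSL lipase described above, which makes up most of the sum, so it is no separate measurement, and its part in the late results was not tested. Lists share members, their descriptions come from sequence matches and isoforms of a component share reads, so the counts are not of independent genes.

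**Figure D5:**
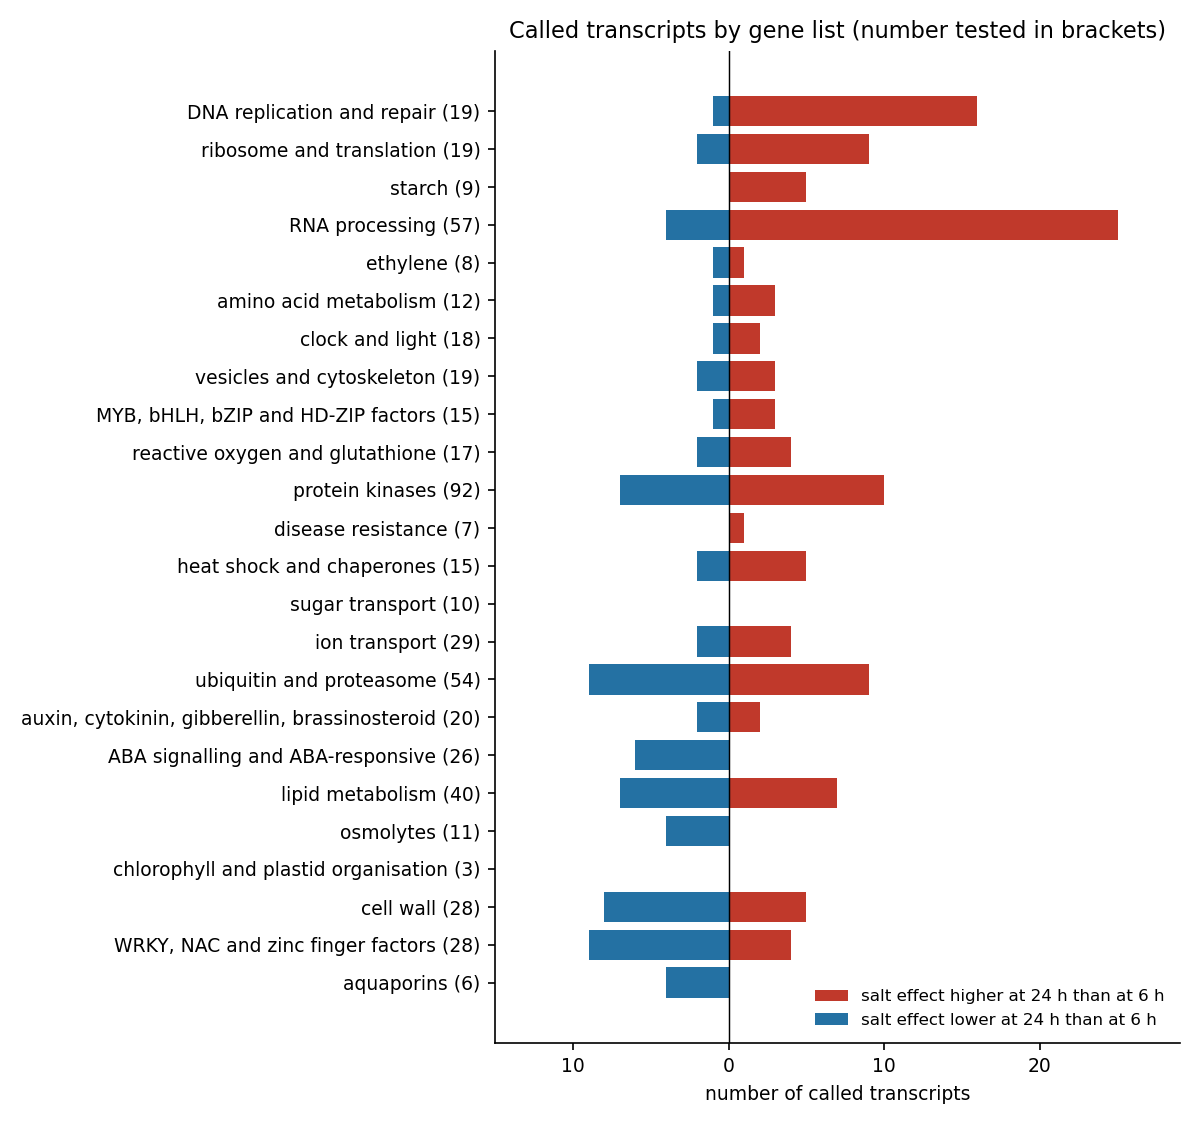
Bars count the transcripts of each gene list whose salt effect was higher at 24 h than at 6 h (red, to the right) or lower (blue, to the left), with the number tested in brackets. Lists run from the highest median interaction at the top to the lowest at the bottom, with 16 red and 1 blue for DNA replication and repair and 4 blue for aquaporins.

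Called isoforms of a component shared their direction. Of the 1257 components with a called transcript, 296 had 2 or more tested transcripts and 169 had 2 or more called, and in 0 of these did the called transcripts differ in direction. Isoforms that were not called can differ from those that were, as for the X intrinsic protein, with -2.19 in the called comp21541_c0_seq2 and 0.34 (adjusted p = 0.444) in comp21541_c0_seq1. Their reads are divided among isoforms by estimate, so they are no independent support.

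Of the called transcripts 434 had a description in the deposited annotation, and the extremes were without one there. The highest interaction, 5.74 ± 1.13 (SE, adjusted p = 0.00211), belonged to comp40589_c0_seq1, which the study names as expansin-like and which is among its own candidates for salt response. It had 66.5, 58.1 and 68.8 RPKM with salt and 0, 0.24 and 3.08 RPKM without at 24 h, and no more than 3.47 RPKM in any replicate at 6 h. The lowest, -5.06 ± 1.26 (SE, adjusted p = 0.00862), belonged to comp30644_c0_seq1, with 2.42, 1.37 and 2.18 RPKM with salt and 65, 89.7 and 2.31 RPKM without at 24 h. The control replicate 3 of 24 h stood apart in the second of these and the treatments of the first did not overlap at 24 h.

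Among transcripts that the study had chosen on these samples as responsive to salt, which are therefore no independent evidence, some were called in the interaction and some were not. The transcript comp45963_c0_seq1 faded, with 26.4, 24.4 and 31.5 RPKM with salt and 2.05, 5.05 and 2.12 RPKM without at 24 h, and 31.2, 38.2 and 37.5 RPKM with salt and 1.02, 0.75 and 0.335 RPKM without at 6 h (interaction -1.57 ± 0.40, SE, adjusted p = 0.0102). In contrast comp31034_c0_seq1 grew, with 298, 312 and 249 RPKM with salt and 0.715, 1.36 and 7.57 RPKM without at 24 h, and 8.51, 3.01 and 13.5 RPKM with salt and 0.12, 0 and 2.52 RPKM without at 6 h (4.08 ± 1.14, SE, adjusted p = 0.015). Its salt effect was thus called at both times here. The paper places it, with SWEET11-like, among candidates that salt induced at 24 h and not at 6 h. The sugar transporter SWEET11-like (comp26249_c0_seq5) had 263, 332 and 229 RPKM with salt and 12.1, 48.4 and 39.5 RPKM without at 24 h, and 17.9, 22.1 and 23.8 RPKM with salt and 5.46, 1.39 and 12.4 RPKM without at 6 h. Its salt effects were 3.20 at 24 h and 1.90 at 6 h, and the interaction of 1.29 ± 1.01 (SE, adjusted p = 0.341) did not pass the test. Likewise comp32085_c0_seq1 was not called (2.35 ± 0.98, SE, adjusted p = 0.0762), nor were both isoforms of comp12659_c0, whose levels were 75.3 RPKM or more in every replicate at 6 h and 0.415 RPKM or less at 24 h, with or without salt.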

How the data were processed

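Poly(A) RNA of leaves was sequenced as strand-specific libraries, each replicate with primers purified by HPLC (HP) and most also with primers that were not (NH). The authors trimmed the reads, assembled them with Trinity, estimated abundance with RSEM and described transcripts with Blast2GO, and they deposited RPKM values per transcript and library. How the 4767 transcripts were chosen, and whether a further scaling was applied, is not given in the sources used here. Of 29 value columns 28 were used. The 1 left out is an NH column of salt-treated leaves at 24 h, replicate 2, for which the labels give 1 library and the deposited columns 2. The paper lists reads for every NH library of salt-treated leaves at 24 h, and a failed NH library of control leaves at 6 h. The paper thus goes with the columns rather than the labels, but no fit with the left-out column was run. HP and NH values of a replicate were averaged, and replicate 2 of the salt-treated leaves at 24 h and replicate 2 of the control leaves at 6 h rest on 1 HP library each. The assembly length tables and the 3 samples labelled as salt-treated at 0 h were not analysed here.

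The analysis used log2(RPKM + 1) and kept any transcript that reached 1 RPKM in 3 or more replicates. limma 3.58.1 in R 4.3.3 was fitted to all 5 groups, and p-values were adjusted by Benjamini and Hochberg over 4658 transcripts. The script was tested on simulated data. Figures were drawn with Python 3.11.15 and matplotlib 3.10.9. Depth is given as relative depth only, since total reads are not in the values. The raw reads that the paper lists were only set beside it at 24 h and entered no fit.

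Members and the 31 gene lists (by words in the descriptions) were chosen with earlier results of these data known, and 49 of 638 word matches were removed as wrong after values were seen. Named transcripts were, for each class and direction, up to 4 described transcripts with the largest interaction (6 for reversed), up to 2 per gene list ranked by adjusted p, the extremes without description (2 in each direction), and the candidates named by the study. Others were named after their values were seen, as stated. Alternatives were another pseudocount, no and stricter filters, equal medians, HP libraries alone, the 4 groups alone, a replicate block, array weights, a stricter threshold and leaving out each replicate.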

Additional observations from a re-analysis of the deposited data

Results flagged for a closer look

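The interaction is itself a test of whether the salt effect differs between the times, and the transcripts named by rule that passed it are collected here with their interaction on the log2 scale. The effect of time and that of the hour of day cannot be told apart in any of them, and no cause was tested.

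Reversed transcripts that were higher with salt at 24 h had interactions of 3.52 (set-like), 3.36 (HSP83-like), 2.67 (60S ribosomal protein), 2.35 (ABC transporter), 2.32 (single-stranded DNA-binding), 2.29 (nucleolar), 2.09 (topoisomerase) and 1.81 (LOG3). Those lower with salt at 24 h had -4.74 (exp1), -2.55 (trypsin inhibitor), -2.27 (rhodanese-like), -2.14 (allantoate), -2.10 (DNA-binding protein), -2.07 (heat stress factor), -1.85 (CCCH zinc finger), -1.75 (actin), -1.66 (C2H2 zinc finger) and -1.58 (ubiquitin-conjugating enzyme).

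Late-only transcripts higher with salt had 5.74 (comp40589_c0_seq1), 5.47 (comp15904_c0_seq3), 3.50 (HSC70), 3.32 (vacuolar transporter), 3.26 (pollen allergen name), 2.76 (UPF0098), 2.52 (PEPC kinase), 2.37 (HSP70), 2.32 (peroxidase 73), 1.86 (RabC2a), 1.52 (RNA-binding), 1.50 (ERF112), 1.47 (constans-like zinc finger, comp9090_c0_seq2), 1.34 (lectin kinase), 1.27 (glucan water dikinase), 1.26 (bHLH157) and 1.04 (alpha-amylase). In comp15904_c0_seq3 the values at 24 h were 114, 128 and 42.5 RPKM with salt and 0, 0.78 and 21.8 RPKM without. Those lower with salt had -5.06 (comp30644_c0_seq1), -4.97 (comp32633_c0_seq1), -3.90 and -2.94 (CCR4-associated factors), -3.05 (epimerase), -2.87 (XTH9), -2.78 (PIP2-4), -2.48 (ERF012), -2.03 (chlorophyll a-b binding), -1.91 (TIP4-1), -1.88 (photosystem II), -1.73 (phospholipase C), -1.48 (HAT4), -1.40 (pectinesterase), -1.15 (5NG4-like) and -1.12 (cyclin-dependent kinase). In comp32633_c0_seq1 control leaves at 24 h had 92.4, 113 and 3.94 RPKM, replicate 3 again within the salt-treated range.

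Early-only transcripts higher with salt had -2.89 (DnaJ), -2.76 (F-box), -2.67 (WRKY53), -2.39 (myo-inositol-1-phosphate synthase), -1.72 (SRK2E), -1.61 (CIP8), -1.59 (phosphatase 2C 63), -1.50 (glutaredoxin), -1.35 (trehalose-phosphate phosphatase) and -0.92 (ion channel 2). Those lower with salt had 2.65 (CDC6 homolog), 2.65 (replication protein A, 32 kDa), 2.50 (RuBisCO-binding chaperonin), 2.42 (replication protein A, 70 kDa), 2.29 (L18a), 1.79 (mechanosensitive channel 8, comp25958_c0_seq4) and 1.19 (disease resistance R3a-like, comp24817_c0_seq3).

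Grown transcripts had 4.08 (comp31034_c0_seq1), 2.25 (comp32475_c0_seq1), 2.02 (RING and CHY), 1.70 (cinnamoyl reductase-like), 1.66 (comp22651_c0_seq2, described only as amino acid), 1.62 (2-oxoisovalerate dehydrogenase), 1.41 (alanine aminotransferase) and 1.34 (branched-chain aminotransferase) where higher, and -2.55 (GDSL lipase), -1.73 (NADH dehydrogenase), -1.39 (P450) and -1.17 (BTB/POZ) where lower. The call of comp32475_c0_seq1 was lost in 10 of 12 fits without 1 replicate (1.63 to 2.89). Faded transcripts had -1.57 (comp45963_c0_seq1), -1.38 (hydroxyphenylpyruvate dioxygenase), -1.14 (homogentisate dioxygenase) and 0.93 (P450).

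With neither effect called alone, interactions were 1.84 (helicase domino-like, comp25202_c0_seq2), 1.55 (squamosa promoter-binding, comp18058_c0_seq2), 1.47 (GPI ethanolamine phosphate transferase, comp21697_c0_seq1), 1.33 (APRR5), -4.35 (ZAT11), -2.79 (calmodulin binding, comp12846_c0_seq1), -2.37 (protein binding, comp8943_c0_seq1), -2.25 (WRKY, comp26279_c1_seq1) and -0.82 (caffeoyl O-methyltransferase, comp22610_c0_seq2). Of these 9, the call of comp21697_c0_seq1 was lost in 1 of 12 fits without 1 replicate and those of the others in 6 to 9.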

How the results depend on the processing

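Transcripts called both in the reported fit and under an alternative kept their direction in every alternative, but fewer were shared in some. With a pseudocount of 0.1, 1155 of the 1505 were shared and 1 of the others changed sign, and the early-only class held 254 transcripts. Of the 97 named transcripts, which include some candidates of the study not called in the reported fit, 19 lost their call. A minimum of 5 RPKM gave 405 higher calls, 263 early-only transcripts and 56 with neither effect alone. HPLC libraries alone gave 959 calls (900 shared, 23 of the 97 named transcripts lost), 514 higher and 445 lower, with 91 reversed, 238 early only, 25 grown and 8 faded, and 562 and 604 that differed between 24 h and 6 h in salt-treated and in control leaves. Array weights gave 296 reversed transcripts. An adjusted p of 0.001 with a size of at least 1 gave 165 calls, 72 higher and 93 lower, with 4 reversed, 111 late only, 28 early only, 1 grown, 0 faded and 21 with neither effect alone, and 104 and 73 that differed between the times in salt-treated and in control leaves. Leaving out 1 replicate gave 1069 to 1674 calls, 553 to 907 higher and 516 to 767 lower, 99 to 279 reversed, 496 to 733 late only, 222 to 496 early only, 28 to 70 grown, 6 to 20 faded and 63 to 107 with neither effect alone, and 622 to 1032 and 638 to 1122 that differed between the times in salt-treated and in control leaves. The transcript comp12659_c0_seq2, not called, changed sign, to 0.79 with a pseudocount of 0.1, and ranged over -0.20 to 0.02 without 1 replicate. A replicate block by replicate number gave 1442 calls, 1390 of them shared, and one by plant group, taking equal numbers within a treatment as the same plants, 1625, with all 1505 shared. Deviations of same-numbered replicates correlated at -0.26 to 0.29 over 30 pairs and at -0.20 to 0.29 over the 12 within a treatment, which does not show whether the numbers mark shared plants. No filter gave 1540 calls, equal medians 1460 and the 4 groups alone 1489. RPKM gives no counts, so low transcripts carry an error that is not known here.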
